A study of Mus musculus with 24 samples.

Results

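The Tcl1 family of the mouse was followed through oocyte maturation and the first cleavage in the presence and absence of Nlrp14. The 6 genes Tcl1, Tcl1b1, Tcl1b2, Tcl1b3, Tcl1b4 and Tcl1b5 were taken by symbol from the 55487 genes of the deposited files, and all 6 were found and passed the filter on low values in every comparison. The study sequenced RNA of oocytes and embryos from Nlrp14 knockout mice and from wild-type (WT) mice. Each genotype was sampled at 4 stages, namely oocytes at germinal vesicle (GV), eggs at metaphase II (MII), zygotes labelled PN5 (the late pronuclear stage) and 2cell embryos, which gives 8 groups of 3 biological replicates and 24 libraries. Each library was made from 5 pooled oocytes or embryos. The sources used here do not name the strain, the age of the females, the knockout allele or the genotype of the sires.

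Proteins of the TCL1 family are small beta-barrel molecules that bind the pleckstrin homology domain of AKT kinases and raise their activity. In humans, TCL1A is known as an oncogene of T-cell leukaemia. In mice, Tcl1 is made by the oocyte, and embryos of females that lack it cleave poorly, which places it among the maternal-effect genes. The Tcl1b genes are a mouse-specific expansion of a gene that is single in humans, and the roles of the single copies are less well known.

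The 6 genes lie side by side on chromosome 12, between positions 105146014 and 105222793 of GRCm38, a span of 76780 nt. Tcl1b2, Tcl1b1, Tcl1b5, Tcl1b3 and Tcl1b4 follow each other in this order on the plus strand, and Tcl1 closes the array on the minus strand (105216750 to 105222793). No other annotated gene overlaps one of the 6 genes. The coding sequences of the Tcl1b genes were 72.3 to 86.3% identical to each other, with the highest identity between Tcl1b3 and Tcl1b5, and 50.8 to 52.7% identical to Tcl1. Their first annotated transcripts encode 116 residues for Tcl1 and for Tcl1b1, 117 for Tcl1b2, 122 for Tcl1b3, 120 for Tcl1b4 and 121 for Tcl1b5.

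Promoters are shown because the 5 Tcl1b genes are near copies whose promoters can be compared with each other and with that of Tcl1. The RefSeq windows run from 250 bases before to 50 bases after the annotated start, 5′ to 3′ on the strand of the gene, on GRCm38.p6. Capitals mark GC boxes (GGGCGG on either strand) in Tcl1, and in the Tcl1b genes a block of 25 bases that all 5 Tcl1b promoters hold without a mismatch. The windows are chr12:105222688-105222987 (minus strand) for Tcl1, chr12:105159454-105159753 (plus) for Tcl1b1, chr12:105146769-105147068 (plus) for Tcl1b2 and chr12:105176094-105176393 (plus) for Tcl1b5.
Tcl1: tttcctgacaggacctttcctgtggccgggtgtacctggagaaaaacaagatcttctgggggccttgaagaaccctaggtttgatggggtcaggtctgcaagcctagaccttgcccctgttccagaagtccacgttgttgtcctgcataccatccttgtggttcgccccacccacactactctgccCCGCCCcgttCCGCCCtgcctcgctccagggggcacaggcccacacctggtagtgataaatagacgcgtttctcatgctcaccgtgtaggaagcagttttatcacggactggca
Tcl1b1: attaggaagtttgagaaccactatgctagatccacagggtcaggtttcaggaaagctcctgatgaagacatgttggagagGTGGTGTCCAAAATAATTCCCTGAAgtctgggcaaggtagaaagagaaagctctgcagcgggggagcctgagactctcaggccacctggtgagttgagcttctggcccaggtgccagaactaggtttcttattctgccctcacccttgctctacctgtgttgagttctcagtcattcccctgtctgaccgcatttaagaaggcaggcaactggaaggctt
Tcl1b2: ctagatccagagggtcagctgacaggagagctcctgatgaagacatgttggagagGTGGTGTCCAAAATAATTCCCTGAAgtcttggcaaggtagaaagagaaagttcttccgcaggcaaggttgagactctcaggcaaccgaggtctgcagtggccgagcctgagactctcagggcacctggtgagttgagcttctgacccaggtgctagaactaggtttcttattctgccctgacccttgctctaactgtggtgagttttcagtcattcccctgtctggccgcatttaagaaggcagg
Tcl1b5: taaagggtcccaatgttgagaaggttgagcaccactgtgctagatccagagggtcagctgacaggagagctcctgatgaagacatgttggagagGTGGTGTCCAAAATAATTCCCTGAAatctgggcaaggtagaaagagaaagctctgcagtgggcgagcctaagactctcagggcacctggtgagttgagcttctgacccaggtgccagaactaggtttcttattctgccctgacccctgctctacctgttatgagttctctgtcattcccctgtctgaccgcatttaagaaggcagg
The block starts 170 bases before the RefSeq start in Tcl1b1, 195 in Tcl1b2, 250 in Tcl1b3, 182 in Tcl1b4 and 156 in Tcl1b5. In GENCODE M21, which gave the gene positions above, Tcl1b2 begins at 105146014 and Tcl1b4 at 105201957. Their RefSeq windows lie downstream of these positions, so that the distances depend on the annotation. It was found in these 5 of 32851 RefSeq promoters, which is 0.0152%. The block was picked from the alignment of these promoters, so that its presence in them is a description. In Tcl1b3 it starts at the first base of the window, so that 25 bases is a lower limit of the shared stretch.

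Identity of the windows was taken over their aligned part, without unaligned ends. The Tcl1b promoters were 66.0 to 98.6% identical over 272 to 300 aligned positions. Tcl1b2 and Tcl1b4 were the closest pair (287 positions). The Tcl1 promoter was 45.9 to 49.8% identical to those of the Tcl1b genes, over 294 to 340 positions, gaps included. No unrelated sequences were aligned in this way. The identities with Tcl1, also those of the coding sequences, thus have no baseline and do not show conservation. The 2 GC boxes of Tcl1 have no counterpart in the Tcl1b windows, and 35.7% of all promoters hold at least one. An E-box (CANNTG, which reads the same on both strands) was found in all 6 windows and in 72.3% of all promoters. Neither TATAAA nor the homeobox letters TAATTA or TAATTG, searched on both strands, were found in the 6 windows, against 13.6% and 12.4% of all promoters. At the other end of the transcript, the letters TTTTAT or TTTTAAT of a cytoplasmic polyadenylation element were found in the last 100 bases of Tcl1 and in none of the Tcl1b transcripts. They occur there in 17.9% of 18002 protein-coding genes.

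The likeness of the Tcl1b transcripts bears on their counting, since reads in a shared stretch can be split between copies. In runs of 50 bases, 100% of Tcl1, 95.7% of Tcl1b4, 87.0% of Tcl1b1, 79.2% of Tcl1b5, 68.6% of Tcl1b2 and 65.9% of Tcl1b3 was found in no other gene. In runs of 150 bases this was 96.2% for Tcl1b2, 96.3% for Tcl1b3 and 100% for the other 4. The read length and the treatment of reads with several matches are not given in the sources used here, so that the split among Tcl1b copies is less certain than their sum.

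Depth implied by the deposited values was 7.65 to 12.3 M fragments per library, and 1 fragment in a transcript of 1 kb was worth 0.0814 to 0.131 FPKM (fragments per kilobase of transcript, scaled to library depth). All levels of the 6 genes were far above that. Nlrp14 itself had 5.75 to 39.2 FPKM in the 12 knockout libraries, against 90.2 to 2014 FPKM in the 12 WT libraries, and was lower in knockout at each stage without overlap. At least 11 of the 12 oocyte markers reached a mean of 1 FPKM in every group, and all 14 of the 15 listed 2-cell markers that the files hold did so in 2cell embryos of both genotypes. Of 16 granulosa and cumulus markers, 2 to 4 did so in any group. A few libraries stood apart from their groups: knockout GV replicate 3 and WT PN5 replicate 1 had the highest summed FPKM of their stages, 456463 and 462297.

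All 6 transcripts were abundant in every group. Tcl1b5 was the lowest of the 6 in all 24 libraries, on the length-scaled FPKM. In knockout 2cell embryos, Tcl1b1 took places 14, 14 and 15 among all genes ranked by FPKM in the 3 libraries, against places 25 to 44 in WT 2cell embryos. Tcl1b5 held places 156 to 164 in knockout and 151 to 344 in WT 2cell embryos.

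**Figure D1:**
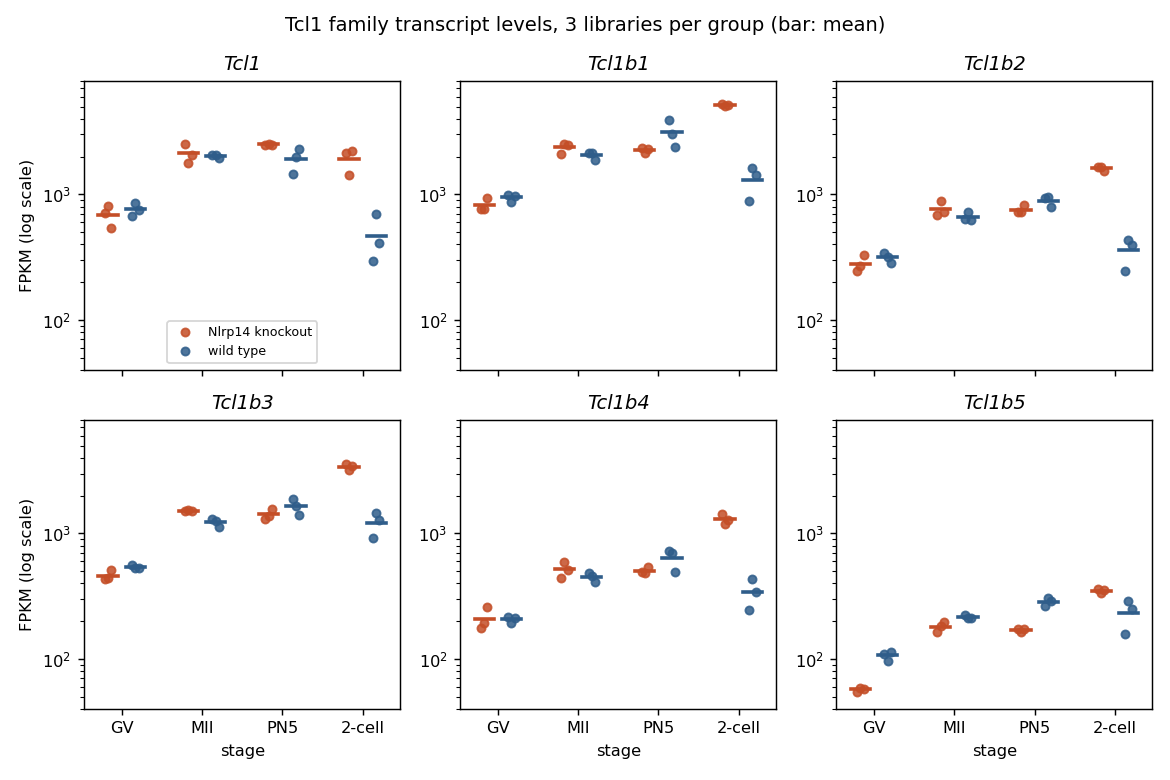
FPKM of the 6 genes on a log axis at each stage, with 1 point per library, knockout left of WT, and a bar at the mean of 3 libraries. The groups part at the 2cell stage, where all knockout points lie above all WT points for each gene, and Tcl1b5 is the gene whose knockout points lie below WT at the 3 earlier stages. The share of all genes that part in this way is not given.

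Tcl1, the AKT co-activator that gives the family its name, had 715, 804 and 540.3 FPKM in knockout GV oocytes, against 677, 850.0 and 757 FPKM in WT GV oocytes. In MII oocytes it had 2504, 1788 and 2065 FPKM in knockout, against 2066, 2073 and 1952 FPKM in WT. The genotypes overlapped at both oocyte stages. In PN5 zygotes it had 2495, 2542 and 2478 FPKM in knockout, against 1445, 1991 and 2283 FPKM in WT, with no overlap. In 2cell embryos it had 2148, 1418 and 2203 FPKM in knockout, against 297, 695 and 412 FPKM in WT, so that the lowest knockout library lay above the highest WT library.

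Tcl1b1, the most abundant of the expanded copies, had 765, 769 and 939 FPKM in knockout GV oocytes, against 988, 871 and 973 FPKM in WT GV oocytes. In MII oocytes it had 2099.7, 2505 and 2488 FPKM in knockout, against 2130.4, 2123 and 1891 FPKM in WT. In PN5 zygotes it had 2348, 2132 and 2299.5 FPKM in knockout, against 3948, 3012 and 2389.8 FPKM in WT. Its knockout libraries thus lay below WT at PN5 and overlapped WT in oocytes. In 2cell embryos it had 5208, 5019 and 5181 FPKM in knockout, against 891, 1624 and 1423 FPKM in WT, a level in knockout above that of every other group.

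Tcl1b2, Tcl1b3 and Tcl1b4 followed a similar course, except that the Tcl1b3 libraries of the genotypes parted at GV and MII. Over GV, MII and PN5, Tcl1b2 ran from 243.5 to 882 FPKM in knockout and from 286 to 953 FPKM in WT. Tcl1b4 ran from 176 to 597 FPKM in knockout and from 194 to 722 FPKM in WT. Tcl1b3 had 433 to 508 FPKM in knockout GV oocytes, against 527 to 557 FPKM in WT. At MII it had 1509 to 1528 FPKM in knockout, against 1128 to 1298 FPKM in WT. Its PN5 libraries overlapped. In 2cell embryos, Tcl1b2 had 1642, 1645 and 1543 FPKM in knockout, against 245, 435 and 392 FPKM in WT. Tcl1b3 had 3558, 3184 and 3434 FPKM in knockout 2cell embryos, against 924, 1448 and 1269 FPKM in WT. Tcl1b4 had 1419.9, 1196 and 1279.8 FPKM in knockout 2cell embryos, against 246, 432 and 338 FPKM in WT. For each of these 3 genes the 2cell groups were far apart, and knockout 2cell embryos had the highest mean of the 8 groups.

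Tcl1b5 took a course of its own before cleavage. It had 54.8, 59.1 and 57.5 FPKM in knockout GV oocytes, against 110.0, 96.5 and 114 FPKM in WT GV oocytes. In MII oocytes it had 163, 182 and 195 FPKM in knockout, against 225, 213 and 209.8 FPKM in WT. In PN5 zygotes it had 172, 162 and 174 FPKM in knockout, against 264, 306 and 288 FPKM in WT. All knockout libraries lay below all WT libraries at these 3 stages. In 2cell embryos the order turned, with 359, 337 and 354 FPKM in knockout, against 157, 291 and 249 FPKM in WT. The share of all genes whose libraries part without overlap is not given here. Non-overlap of 3 against 3 libraries is thus only a description, for Tcl1b5 and for the other members. Of all tested genes, 11.8, 29.1, 31.3 and 59.9% had an unadjusted limma p under 0.05 for genotype at GV, MII, PN5 and 2cell.

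When the 8 groups were ordered by mean level, most neighbours for Tcl1 could not be told apart by their ranges: 6 of its 7 neighbouring pairs overlapped, and the only gap lay between WT GV oocytes and WT PN5 zygotes. Of 7 neighbouring pairs, 4 overlapped for Tcl1b1 and for Tcl1b2, 5 for Tcl1b4, and 3 for Tcl1b3 and for Tcl1b5. For each Tcl1b gene the step from the next highest group, WT PN5 zygotes, to knockout 2cell embryos was free of overlap.

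Differences between genotypes were tested with limma on log2(FPKM + 1) over all genes that reached 1 FPKM in 3 or more libraries of the comparison, and a gene was called at an adjusted p (Benjamini-Hochberg) under 0.05. In GV oocytes, 0 of the 6 genes were called, where 0.043% of all tested genes were, and 1 member and 1378 of 11635 genes had an unadjusted p under 0.05. That member was Tcl1b5, with a log2 difference, knockout minus WT, of -0.89 ± 0.14 (SE) and an adjusted p of 0.0956 in limma. Without knockout GV replicate 3 the adjusted p of Tcl1b5 was 0.0129, and Tcl1b3 was called as well (-0.30, adjusted p = 0.0345), in a fit that called 5.43% of all genes lower and 8.97% in either direction. Tcl1b5 was also called in the fit of all 24 libraries (adjusted p = 0.0076), which called 0.737% of all genes lower. In MII oocytes, 0 of 6 were called, where 2.28% of all genes were, and 1 member (Tcl1b3, 0.31 ± 0.12) and 2544 genes had an unadjusted p under 0.05.

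In PN5 zygotes, 1 of the 6 genes was called and was lower in knockout, where 5.53% of all genes were called lower and 6.1% in either direction. Tcl1b5 was lower in knockout by 0.75 ± 0.18 on the log2 scale (SE, adjusted p = 0.0471 in limma). This call lies close to the threshold: the adjusted p ran from 0.00581 to 0.211 over 8 other settings, 6 of which ended the call, and from 0.0197 to 0.199 when 1 library was left out. Tcl1, which lay above WT in all knockout libraries, had a difference of 0.42 ± 0.22 and was not called (adjusted p = 0.227). Without WT PN5 replicate 3, Tcl1b1 was called lower in knockout (-0.61, adjusted p = 0.0403), where 16.9% of all genes were called lower and 32.9% in either direction.

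In 2cell embryos, 5 of the 6 genes were called higher in knockout and 0 lower, where 14.0% of all 13828 tested genes were called higher and 40.3% lower. Tcl1b2 was higher in knockout by 2.21 ± 0.23 on the log2 scale (SE, adjusted p = 0.000316), a mean of 1610 FPKM against 357 FPKM in WT. Tcl1 was higher in knockout by 2.10 ± 0.32 (adjusted p = 0.0011), a 4.11-fold ratio of the means. Tcl1b1 was higher by 2.01 ± 0.23, Tcl1b4 by 1.97 ± 0.22 and Tcl1b3 by 1.51 ± 0.20, with adjusted p of 0.000414, 0.00041 and 0.00064 in limma. Each of these 5 differences lay above those of 96.2 to 99.0% of all tested genes. Tcl1b5 had a difference of 0.63 ± 0.24 and was not called (adjusted p = 0.0505).

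**Figure D2:**
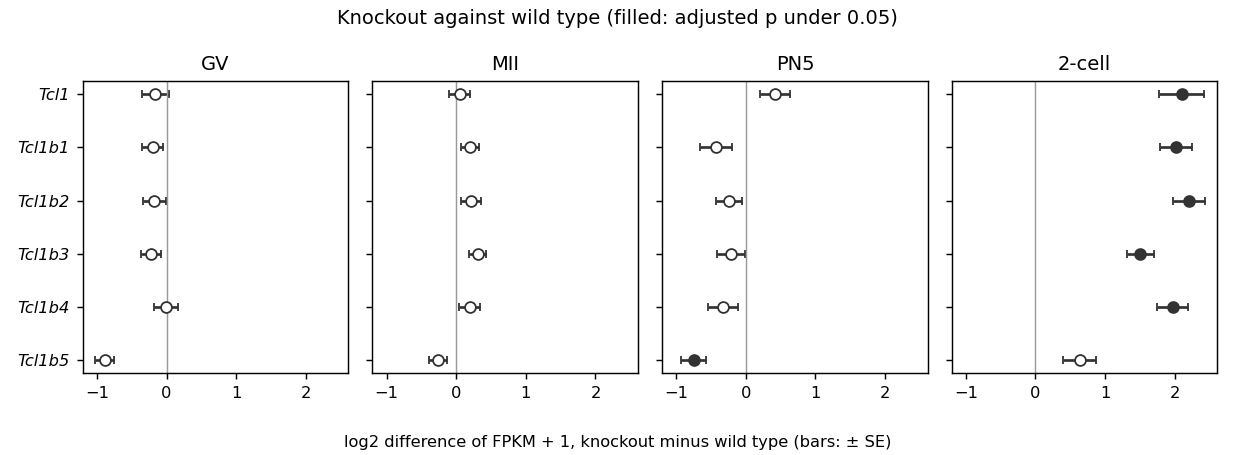
Log2 difference of FPKM + 1, knockout minus WT, for the 6 genes at each stage, with bars for the SE of limma and filled points for an adjusted p under 0.05. At the 2cell stage 5 points are filled and lie between 1.51 and 2.21, while Tcl1b5 lies lowest of the family at every stage.

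The median log2 difference of the 6 genes at the 2cell stage was 1.99, beside -0.44 over all tested genes. That median of all genes was -0.19 after median-of-ratios rescaling and -0.00054 after removal of a trend with transcript length, and the 5 calls held under both. These settings called 20.3 and 25.1% of all genes higher. Tcl1b5 was called higher under both, at 0.99 (adjusted p = 0.00977) and 1.01 (adjusted p = 0.0104). It was also called without WT 2cell replicate 2 (0.82, adjusted p = 0.029), where 13.8% of all genes were called higher. At an unaltered difference of 0.63 it was also called with a filter at a mean of 5 FPKM (adjusted p = 0.0393) and in the fit of all 24 libraries (adjusted p = 0.00234). Those fits called 20.9 and 15.7% of all genes higher. In pooled whole embryos, fewer cells of a type and less RNA per cell cannot be told apart, and FPKM are shares of the RNA captured. The summed level of 12 oocyte markers ran from 18235 to 25010 FPKM in knockout 2cell embryos, against 5936 to 7817 FPKM in WT, and that of the 2-cell markers from 2005 to 3105 FPKM in knockout, against 1281 to 1788 FPKM in WT. Granulosa and cumulus markers summed to 10.5 to 13.7 FPKM in knockout and 28.3 to 42.7 FPKM in WT 2cell embryos, with Amh, Fshr, Inha, Inhba and Ptx3 at 0 in both genotypes and 4 of 16 in knockout and 3 of 16 in WT at a mean of 1 FPKM or more. Markers of lymphocytes, blood and stroma summed to 24.7 to 29.6 FPKM in knockout and 52.2 to 91.6 FPKM in WT (3 of 15 and 4 of 15 at a mean of 1 FPKM or more, Hbb-bs at 0 in both), and sperm markers to 4.26 to 7.15 FPKM in knockout and 2.88 to 3.63 FPKM in WT (2 of 10 and 1 of 10, Tnp2 at 0 in both). The granulosa and blood sums rested on few genes, given as means in knockout against WT 2cell embryos. Tnfaip6 (4.56 against 25.2 FPKM) and Nr5a2 (2.32 against 8.77) were lower in knockout, and Cyp19a1 (2.71 against 0.759) and Kitl (1.78 against 1.53) higher. Means in PN5 zygotes, again knockout against WT, were 0.0602 against 0 FPKM for Tnfaip6 and 1.15 against 1.29 for Nr5a2. For Cyp19a1 they were 14.4 against 16.1, and for Kitl 0.920 against 0.788. Among blood markers, Hba-a1 (16.0 against 54.5), Cd79a (0.0835 against 3.95) and Pecam1 (1.75 against 2.67) were lower, and Ms4a1 (9.23 against 4.19) higher. The part of these markers in the result was not tested.

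**Figure D3:**
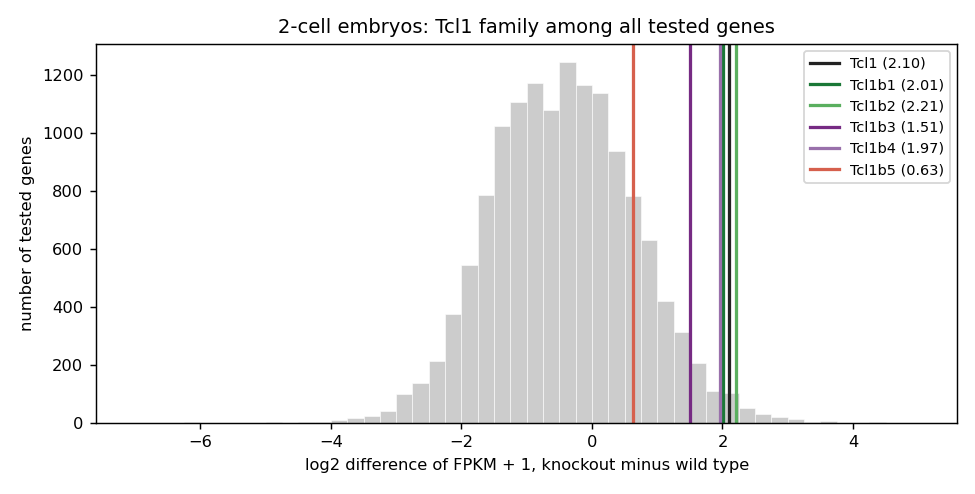
Number of tested genes by log2 difference of FPKM + 1, knockout minus WT, in 2cell embryos, with a vertical line for each of the 6 genes. The bulk of the genes lies around and below 0, whereas 5 lines stand between 1.51 and 2.21 and that of Tcl1b5 at 0.63.

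The genotypes were then compared in how each gene changed between successive stages. From GV to MII, all 6 genes rose in knockout oocytes, by 1.31 to 1.72 on the log2 scale, where 20.8% of all genes were called higher. All 6 also rose in WT oocytes, by 1.01 to 1.42, where 31.1% of all genes were. The median change of all tested genes was -0.61 in knockout and -0.50 in WT, but it depended on the set of genes tested. Without 1 knockout GV library it was -0.22 to -0.06 in knockout, and without 1 WT GV library -0.01 to 0.02 in WT. With a trend over transcript length removed, the medians were 0.03 in both genotypes, and the changes of the 6 genes were 2.48 to 3.00 in knockout and 2.18 to 2.40 in WT. All 6 were then called higher in each genotype, where 35.1% of all genes were in knockout and 41.2% in WT. FPKM follow shares of the captured RNA and do not give amounts per oocyte. The difference between the genotypes in this change was called for 0 of 6 genes, where 0.12% of all genes were, and 2 members and 829 genes had an unadjusted p under 0.05.

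From MII to PN5, 0 of 6 genes were called in knockout, where 32.8% of all genes were called in either direction, and 0 members and 4190 genes had an unadjusted p under 0.05. In WT, 0 of 6 were called, where 14.2% of all genes were, and 4 members and 2923 genes had an unadjusted p under 0.05. The WT result depends on PN5 libraries. Without WT PN5 replicate 3, Tcl1b1, Tcl1b2, Tcl1b3 and Tcl1b4 were called higher in PN5 than in MII, by 0.51 to 0.75, where 14.4% of all genes were called higher and 15.6% lower. Without WT PN5 replicate 1, Tcl1b5 was (0.46), where 12.9% of all genes were called higher. The difference between the genotypes was called for 0 of 6, where 7.45% of all genes were, and 3 members and 3932 genes had an unadjusted p under 0.05. Without WT PN5 replicate 3 it was called for 3 members, where 41.4% of all genes were called, and without knockout MII replicate 1 for 1 (Tcl1b5), where 26.5% were. In knockout, Tcl1 was called higher in PN5 than in MII without knockout MII replicate 1 (0.38, adjusted p = 0.0231), where 35.1% of all genes were.

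From PN5 to 2cell the courses of the genotypes parted. In knockout, Tcl1b1 to Tcl1b5 rose, by 1.04 to 1.36, where 43.8% of all genes were called higher, and Tcl1 had a change of -0.41 ± 0.17 (adjusted p = 0.0592, not called). Tcl1 was called lower under median-of-ratios rescaling (-0.51, adjusted p = 0.0271), TPM (-1.04, adjusted p = 0.000872) and a filter at a mean of 5 FPKM (adjusted p = 0.0458). It was also called lower without knockout 2cell replicate 1 (-0.50, adjusted p = 0.0455) or replicate 3 (-0.52, adjusted p = 0.0387). These 5 fits called 28.5 to 39.2% of all genes lower. In WT, 4 of 6 genes fell, where 14.8% of all genes were called lower. Tcl1 fell by 2.09 ± 0.35, Tcl1b2 by 1.36 ± 0.27, Tcl1b1 by 1.26 ± 0.32 and Tcl1b4 by 0.93 ± 0.28 on the log2 scale (SE). Tcl1b3 and Tcl1b5 had changes of -0.46 ± 0.27 and -0.34 ± 0.27 and were not called. Tcl1b3 was called lower under TPM (-0.80, adjusted p = 0.0142) and in the fit of all 24 libraries (adjusted p = 0.0112), and neither fit called more than 17.3% of all genes lower. The call of Tcl1b4 was lost without WT 2cell replicate 1 (adjusted p = 0.097), WT 2cell replicate 3 (0.0563) or WT PN5 replicate 2 (0.0749).

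**Figure D4:**
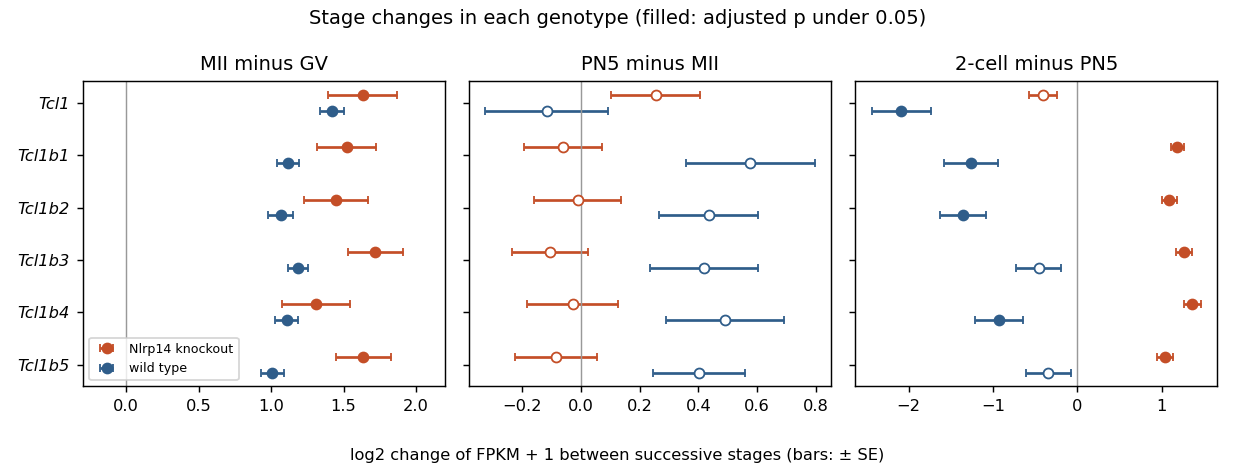
Log2 change of FPKM + 1 between successive stages, later minus earlier, with knockout above WT in each pair of points, bars for the SE of limma and filled points for an adjusted p under 0.05; the panels have separate scales. In the last panel the Tcl1b points of knockout lie between 1.04 and 1.36, while all WT points lie below 0.

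The rise of the Tcl1b genes in knockout changed with the treatment of transcript length. Levels sloped with exon length by -0.134 to -0.104 (log2 level per doubling of length, relative to the mean of all libraries) in knockout 2cell embryos and by 0.118 to 0.128 in knockout PN5 zygotes. The annotated exons of the 6 genes span 1040 to 1845 nt, below the median of 2492.5 nt of the genes tested at the 2cell stage. With that trend removed, the change from PN5 to 2cell in knockout was 0.58 for Tcl1b4 (called, adjusted p = 0.00442), 0.28 for Tcl1b3, 0.20 for Tcl1b1 and for Tcl1b2 and 0.06 for Tcl1b5 (not called), and Tcl1 was called lower (-1.02, adjusted p = 0.00167), where 33.7% of all genes were called higher and 31.6% lower. In WT, all 6 were then called lower, with changes of -3.00 to -1.39, where 31.9% of all genes were.

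The difference between these courses did not depend on that correction. The interaction of genotype with the change from PN5 to 2cell was called for all 6 genes, where 13.8% of all genes were called in that direction. It was 2.45 ± 0.29 for Tcl1b2, 2.45 ± 0.33 for Tcl1b1, 2.29 ± 0.31 for Tcl1b4, 1.72 ± 0.27 for Tcl1b3, 1.68 ± 0.41 for Tcl1 and 1.38 ± 0.29 for Tcl1b5 (log2, SE). The adjusted p ran from 0.000117 for Tcl1b2 to 0.00575 for Tcl1 in limma. All 6 were called under each of the 8 other settings and without each of the 12 libraries in turn.

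Taken as a sum, the 6 genes made up 2.59 to 2.88% of the summed FPKM in knockout 2cell libraries, against 0.588 to 1.11% in WT 2cell libraries. In PN5 zygotes the share was 2.34 to 2.45% in knockout and 1.99 to 2.37% in WT, and in MII oocytes 1.98 to 2.31% in knockout and 2.03 to 2.22% in WT. In GV oocytes it was 0.577 to 0.671% in knockout, against 0.751 to 0.766% in WT, which did not overlap. The sum carries no test, since its members were picked together.

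The make-up of the sum also shifted. Tcl1 gave 31.5 to 34.2% of the family in knockout PN5 zygotes, against 15.7 to 29.9% in WT PN5 zygotes, and 11.1 to 15.7% in knockout 2cell embryos, against 10.1 to 14.1% in WT. Its share was thus lower in 2cell embryos than in PN5 zygotes in both genotypes. Tcl1b3 gave 24.5 to 24.9% of the family in knockout 2cell embryos, against 29.4 to 33.5% in WT. Tcl1b5 gave 2.94 to 3.00% of the summed Tcl1b level in knockout 2cell embryos, against 6.38 to 6.88% in WT. Its share was also lower in knockout without overlap in GV oocytes (2.75 to 3.42%, against 4.81 to 5.41% in WT) and MII oocytes (3.20 to 3.58%, against 4.47 to 4.92% in WT). In PN5 zygotes it was 3.22 to 3.43% in knockout and 3.40 to 5.37% in WT, and the overlap was due to WT replicate 1.

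**Figure D5:**
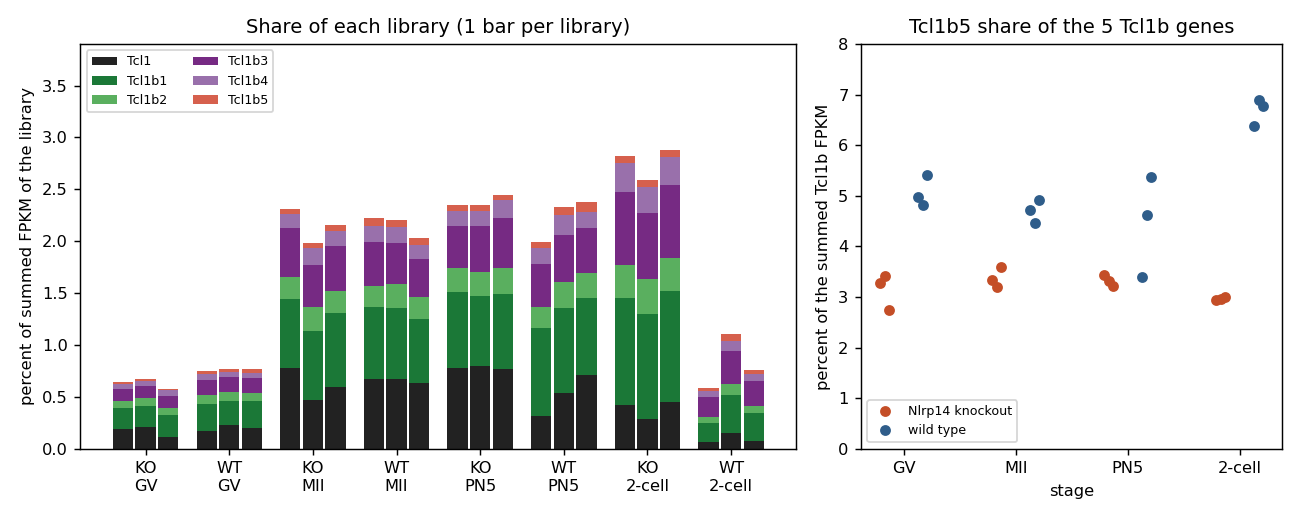
Left, percent of the summed FPKM of each library that the 6 genes make up, with 1 stacked bar per library and knockout left of WT at each stage. Right, percent of the summed Tcl1b FPKM that Tcl1b5 makes up, with 1 point per library: the knockout points stay between 2.75 and 3.58% at all stages, and the WT 2cell points lie between 6.38 and 6.88%.

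Over the 24 libraries, log2 levels of Tcl1b1 to Tcl1b4 correlated with each other with Pearson's r of 0.927 to 0.985. Tcl1b5 correlated with them with r of 0.792 to 0.907, and Tcl1 with the Tcl1b genes with r of 0.474 to 0.775. These values describe libraries that share stages, depth and, among Tcl1b genes, similar sequence. Among 6351 other protein-coding genes, the 3 whose log2 levels were most like Tcl1 were Dazap2 (r = 0.968), Spin1 (0.967), which encodes a reader of histone methylation, and Rnf34 (0.964). Those most like Tcl1b1 were Cks2 (0.951), which encodes a subunit of cyclin-dependent kinase complexes, B9d1 (0.948) and Brdt (0.938), a bromodomain gene known from the testis. Brdt, with r of 0.975 and 0.961, led the lists of Tcl1b3 and Tcl1b4, Med27 (0.957), of the Mediator complex, that of Tcl1b2, and Usp53 (0.931) that of Tcl1b5.

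The remaining family member, Mtcp1 on chromosome X, had group means of 0.0788 to 0.306 FPKM, near the level of single fragments. Within 250 kb of the array lie 3 other annotated protein-coding genes with their whole body, of which Syne3 and Glrx5 reached a mean of 1 FPKM in some group. Glrx5, which encodes a mitochondrial glutaredoxin of iron-sulphur cluster assembly, was lower in knockout 2cell embryos (10.4 FPKM, against 19.5 FPKM in WT), with a log2 difference of -0.85 ± 0.21 (SE, adjusted p = 0.00822 in limma). At this stage 40.3% of all tested genes were called lower in knockout, and Glrx5 was the only one of these nearby genes tested. Syne3 was at most 3.37 FPKM in any group mean, and Tunar at most 0.012 FPKM.

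AKT kinases are the binding partners of TCL1 proteins, and the transcripts of Akt1 and Akt2 were low beside those of the family. In knockout, Akt1 averaged 2.92, 8.86, 15.4 and 3.55 FPKM in GV, MII, PN5 and 2cell, against 3.26, 11.9, 8.82 and 4.90 FPKM in WT. Akt2 had a mean under 1 FPKM in every group. Akt1 was not called between the genotypes at any stage (adjusted p of 0.205 to 0.842 in limma).

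Of 43 listed genes of PI3K-AKT signalling, 26, 27 and 28 were tested at GV, MII and PN5 and 0 were called between the genotypes by limma at each of these stages. At an unadjusted p under 0.05 there were 2 at GV, 10 at MII and 3 at PN5, where 11.8, 29.1 and 31.3% of all tested genes were. In 2cell embryos, 32 were tested, 1 was called higher and 11 lower in knockout, where 14.0% of all tested genes were called higher and 40.3% lower, so that neither count stood above that background. The median log2 difference of the list was -0.36, beside -0.44 over all tested genes. Ppp2cb and Ppp2ca, catalytic subunits of the phosphatase PP2A, were lower in knockout by 2.25 ± 0.26 and 1.25 ± 0.23 on the log2 scale (SE). Cdkn1a, which encodes a cell-cycle inhibitor, was lower by 1.85 ± 0.25, and Pik3c2a, a class II PI3-kinase gene, by 1.00 ± 0.18. Tsc2, which encodes a brake on mTOR complex 1, was higher in knockout by 0.69 ± 0.20.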

How the data were processed

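Per the labels' protocols, cDNA of total RNA was made with a SMART-Seq HT kit. The authors deposited FPKM of 55487 Ensembl genes, in a file for each library; the submitters' processing notes name StringTie and the build GRCm38. The sources used here do not give versions, aligner, read length, strandedness or filters. Low values came in whole multiples of 1 fragment for 98.9 to 99.3% of values in 34257 genes with 1 transcript (multiples up to 30, tolerance 0.02), which gave the depth.

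Symbols, positions and lengths came from GENCODE M21 (55227 identifiers matched, 260 did not), and promoters from RefSeq, which matched all 6 genes. Each of 13 comparisons was fitted with limma 3.58.1 (R 4.3.3, files read by data.table in version 1.17.8; trend and robust empirical Bayes) on log2(FPKM + 1), a scale that understates changes of low genes. Tested genes reached 1 FPKM in 3 or more libraries of the comparison, p-values were adjusted over all of them (Benjamini-Hochberg), and the threshold was 0.05. The fit was tested on simulated data. The members, the list of 43 PI3K-AKT genes and the marker lists were chosen with earlier results of these data known. Values of listed genes are given for those past the threshold, for the 4 with the smallest p where more passed, and for Akt1 and Akt2; some listed genes are not reported here. Genes like a member were the 3 with the highest r over 24 libraries among protein-coding genes with a group mean of at least 5 FPKM. Other settings were another scaling, TPM, a length correction, a pseudocount of 0.1, other filters, all 24 libraries in 1 fit, a replicate block and leaving out each library. Replicates are labelled biological. Tables and figures used Python 3.11.15, Biopython 1.88, pandas 2.3.3, matplotlib 3.10.9 and numpy 2.4.6.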

Additional observations from a re-analysis of the deposited data

Results flagged for a closer look

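The change from PN5 to 2cell differed between the genotypes for all 6 genes, in the test of that difference itself (limma, knockout change minus WT change). The log2 difference was 1.68 for Tcl1, 2.45 for Tcl1b1, 2.45 for Tcl1b2, 1.72 for Tcl1b3, 2.29 for Tcl1b4 and 1.38 for Tcl1b5. The causes of these differences were not tested.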

How the results depend on the processing

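Over 8 other settings and the fits without 1 library, 180 of 200 counts of called members stayed within 1.5 times their value. For knockout against WT at GV the count was 1 in a fit of all 24 libraries, against 0, and 0 to 2 without 1 library. At PN5 it was 0, against 1, under median-of-ratios rescaling, TPM, the length correction, a pseudocount of 0.1, no filter and the replicate block, and 0 to 2 without 1 library. For PN5 against MII in WT it was 1 in a fit of all 24 libraries and 0 to 4 without 1 library, in knockout 0 to 1, and for the interaction 0 to 3. For 2cell against PN5 in knockout it was 2 with the length correction (Tcl1b4 higher and Tcl1 lower), against 5, all higher. Values changed sign in 23 cases, none of them called in either fit. For knockout against WT these were Tcl1b4 at GV (0.048 under median-of-ratios rescaling, 0.017 with the length correction, -0.17 to 0.10 without 1 library), Tcl1 at MII (-0.13 under TPM; its range without 1 library was -0.079 to 0.16) and, at PN5, Tcl1b2 (0.013 under TPM, 0.096 with the length correction) and Tcl1b3 (0.037 and 0.17). For PN5 against MII they were Tcl1 in WT (-0.26 to 0.071 without 1 library) and, in knockout under TPM, Tcl1b1 (0.061), Tcl1b2 (0.11), Tcl1b3 (0.019), Tcl1b4 (0.096) and Tcl1b5 (0.038); without 1 library Tcl1b2 ran from -0.0895 to 0.096 and Tcl1b4 from -0.14 to 0.082 in knockout. Of all calls at 2cell, 74.2% were lower in knockout, against 61.0% after median-of-ratios rescaling and 50.7% with the length correction. In 0 of 10 comparisons of 2 groups did every library deviate together with, or correlate best with, that of its own replicate number, so that the numbers were not taken as pairs, and the replicate block changed no count other than that at PN5 by over 1.5 times. Apart from fewer libraries where 1 was left out, the causes were not tested. Transcripts of this abundance are not limited by depth; 3 libraries per group limit the precision.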
